A study of Mus musculus with 15 samples.

Results

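The genes described here are 45 genes that mark cerebellar neurons or build the presynaptic terminal, of 35142 genes measured. They are defined by their symbols, and the rule that defines them uses no measured value, although earlier results of these data were known when it was written. By role they comprise 8 genes of the vesicle release machinery, 6 of the synaptic vesicle, 4 of the active zone, 2 vesicular glutamate transporters, 3 inhibitory transmitter genes, 8 pan-neuronal genes, 8 genes of the granule cell lineage and 6 Purkinje cell genes. Their RNA was measured in 15 cultures of dissociated cerebellum from C57BL/6 wild-type pups taken at postnatal day 0 to 4, plated at 90000 cells per well. On day 14 in vitro, 5 cultures received 30 ng/ml recombinant murine IL-12p70 for 18 h, 5 received 100 ng/ml, and 5 were left unstimulated. IL-12p70 is the active heterodimer of the cytokine interleukin-12. The comparison asks whether and how neurons respond to IL-12. The cultures were not sorted, so each value is that of a whole culture, although the samples are labelled as neurons. The labels do not say whether replicates came from separate litters or dissections, so the p-values measure the spread between these cultures, which may be technical in part.

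Granule cells are the small glutamatergic neurons of the cerebellum and outnumber every other neuron there. Purkinje cells are the large inhibitory output neurons of the cerebellar cortex, and inhibitory interneurons make GABA as well. At a presynaptic terminal, calcium entry triggers fusion of transmitter-filled vesicles through SNARE proteins, at a protein scaffold called the active zone.

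Between 25746096 and 38435850 estimated counts were assigned per culture, and the members together took 0.107% to 0.124% of them. Values compared between cultures are CPM, the counts scaled to library size with edgeR's TMM factors. Levels compared between genes are TPM, which also account for transcript length. A gene was called when edgeR's quasi-likelihood test gave a Benjamini-Hochberg adjusted p (FDR) under 0.05 over the 15360 genes that reached 1 CPM in 2 or more cultures. Of the 45 members, 42 passed this filter and 3 did not (*Slc17a6*, *Nefh* and *Pcp2*). For 16 of the 45, a gene on the opposite strand with at least 1 TPM overlaps the locus, and whether the estimates used the strand of the reads is not given in the sources used here. The values of these 16 are therefore uncertain, among them those of *Unc13a*, *Gad1* and *Pax6*.

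Many neuronal genes share a control element, RE1, which binds the repressor REST and is known for keeping such genes silent outside neurons. Promoters of 32 members, from 250 bases before to 50 after the start of transcription, were searched for sequence motifs on both strands, with shorter cores of the left and right RE1 parts, using RefSeq sequences of the mouse build GRCm38.p6. No sequence was used here for *Snap25*, *Vamp2*, *Rims2*, *Nefl*, *Nefm*, *Nefh*, *Stmn2*, *Cbln1*, *Zic2*, *Calb2*, *Calb1*, *Itpr1* or *Car8*. The left part of RE1, TTCAGCACC, was present in *Syn1* and *Unc13a* and in 0.433% of all 27025 promoters. Its core TCAGCACC, which lies within it, was in 3 members and in 1.85% of all. The right part, GGACAGCG, was present in *Gad2* and *Unc13a* and in 1.48% of all, and its core GGACAGC in 6 members and 7.59% of all. The left and right parts occurred in the same window, at any spacing, order or strand, in 7 promoters (0.0259%). *Unc13a* was the one member among them. The stretches that hold these motifs are shown because *Unc13a* and *Gad2* are among the genes that fell with IL-12. *Syn1* is shown as the third member with a left or right part. Capitals mark the RE1 parts.

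Unc13a, chr8:71671724-71671753, minus strand, bases 5 to 34 after the start: ggCGCTGTCCgcgcccccGGTGCTGAAgcg

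Syn1, chrX:20920919-20921168, minus strand, the 250 bases before the start: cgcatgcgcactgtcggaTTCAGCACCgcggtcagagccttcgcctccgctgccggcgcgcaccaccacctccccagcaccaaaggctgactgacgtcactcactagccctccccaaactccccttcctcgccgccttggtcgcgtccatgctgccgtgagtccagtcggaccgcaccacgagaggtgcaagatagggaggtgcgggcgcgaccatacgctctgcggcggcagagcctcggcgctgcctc

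Gad2, chr2:22622077-22622326, plus strand, the 250 bases before the start: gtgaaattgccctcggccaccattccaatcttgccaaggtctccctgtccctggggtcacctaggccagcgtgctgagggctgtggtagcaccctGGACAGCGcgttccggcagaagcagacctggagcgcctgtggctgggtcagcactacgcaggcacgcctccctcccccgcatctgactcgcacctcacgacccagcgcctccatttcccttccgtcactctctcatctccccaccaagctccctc

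In *Unc13a* both RE1 parts read on the opposite strand, with 8 bases between them. The cAMP response element TGACGTCA was in *Syn1* and *Pax6* and in 2.03% of all promoters. The E-box CAGATG, a motif bound by neuronal basic helix-loop-helix factors such as the product of *Neurod1*, was in 6 members and 19.2% of all. The motif TTCNNNGAA, to which STAT factors bind, was in *Sv2b* and *Syn2* and in 9.55% of all. These matches are descriptions of letters in a window and not evidence of binding.

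In unstimulated cultures the members covered a wide range of levels. The highest was *Map2*, a microtubule protein of dendrites, at 84.9 ± 13.6 TPM (SD, n = 5 cultures). *Vamp2*, the vesicle SNARE of most central synapses, followed at 80.7 ± 6.51 TPM, and *Zic1*, a zinc finger factor of granule cells and their precursors, at 72.4 ± 4.36 TPM. The SDs of these 3 overlap, so their order is not resolved. In all, 12 members lay over 20 TPM, 29 between 1 and 20 TPM and 4 under 1 TPM, with a median of 5.53 TPM. At the low end, *Pcp2*, a defining Purkinje gene, had 0 to 3 counts in every one of the 15 cultures. *Slc17a6*, the second vesicular glutamate transporter, had 4 to 14 counts and *Nefh*, the heavy neurofilament, 7 to 29. By contrast *Slc17a7*, the transporter of mature granule cells, was at 5.53 TPM. The group labelled as Purkinje genes thus rested on *Calb1*, *Itpr1*, *Pvalb*, *Pcp4* and *Car8*, which other cell types also express, with *Pcp2* near 0.

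**Figure D1:**
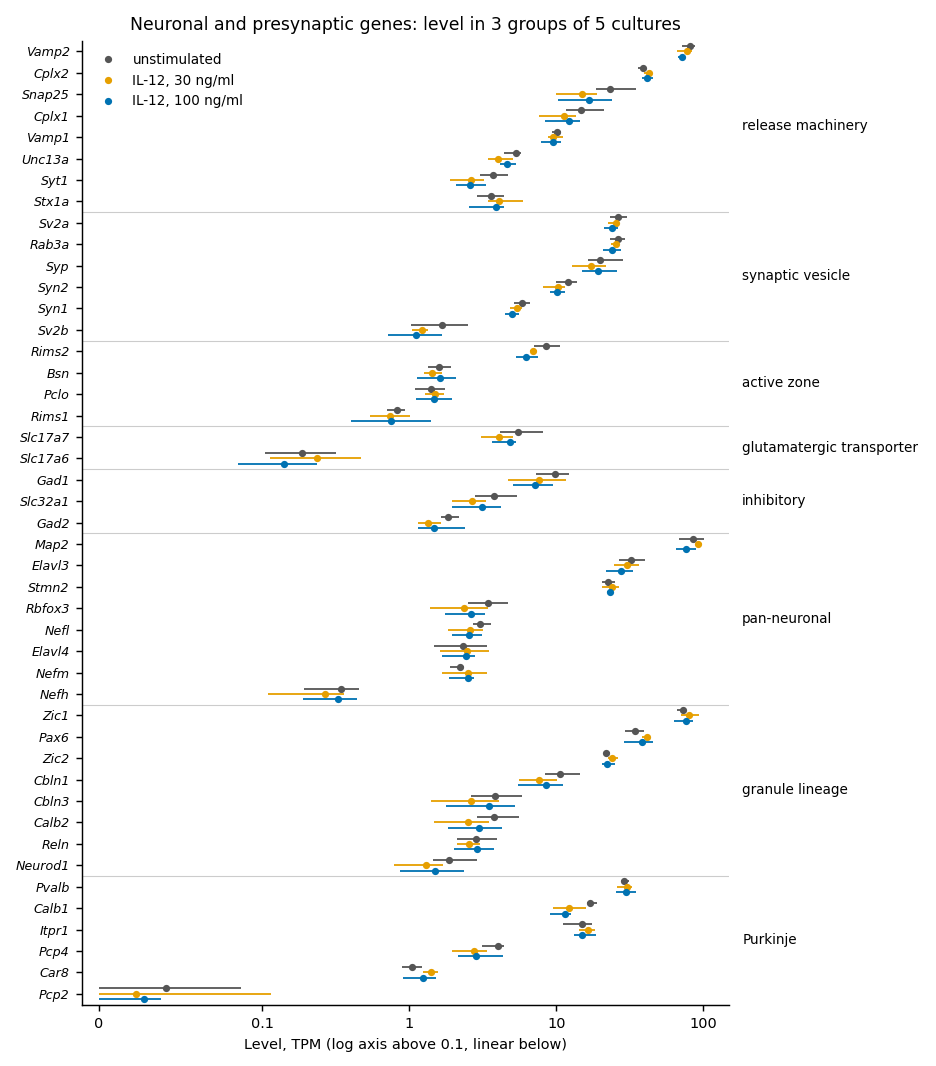
TPM (log axis above 0.1, linear below) of the 45 members, grouped by role, with the mean of each group of 5 cultures as a point and its lowest to highest culture as a line. The members run from *Map2* at 84.9 TPM in unstimulated cultures to *Pcp2* at 0.0412 TPM.

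With IL-12, the called members were few and nearly all lower. Against the mean of both concentrations, 6 of 42 members fell, namely *Unc13a*, *Calb1*, *Rims2*, *Gad1*, *Syt1* and *Gad2*, where 5.22% of all tested genes were called lower. By edgeR 0 members were called higher, against 6.71% of all genes, although 5 members were higher at an unadjusted p under 0.05 (*Stx1a*, *Cplx2*, *Zic1*, *Pax6* and *Car8*; 14.2% of all genes) and DESeq2 called 1 (*Pax6*; 7.88% of all genes). DESeq2 called 10 members lower (7.26% of all genes), and 20 had an unadjusted p under 0.05 in that direction (12.9% of all genes). The median log2 fold change was -0.18 over the 42 members, with 31 (73.8%) below 0, and -0.002 over all tested genes, with 50.8% below 0. At 100 ng/ml, 3 members were called lower (3.93% of all genes) and none higher in either edgeR (5.83% of all genes) or DESeq2 (7.05%), with 1 member higher at an unadjusted p under 0.05 (13.7% of all genes). At 30 ng/ml, 3 were called lower (3.71% of all genes) and 1, *Pax6*, higher (4.16% of all genes). Both concentrations were compared with the same 5 unstimulated cultures. In whole cultures, fewer cells of a type and less RNA per cell cannot be told apart.

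**Figure D2:**
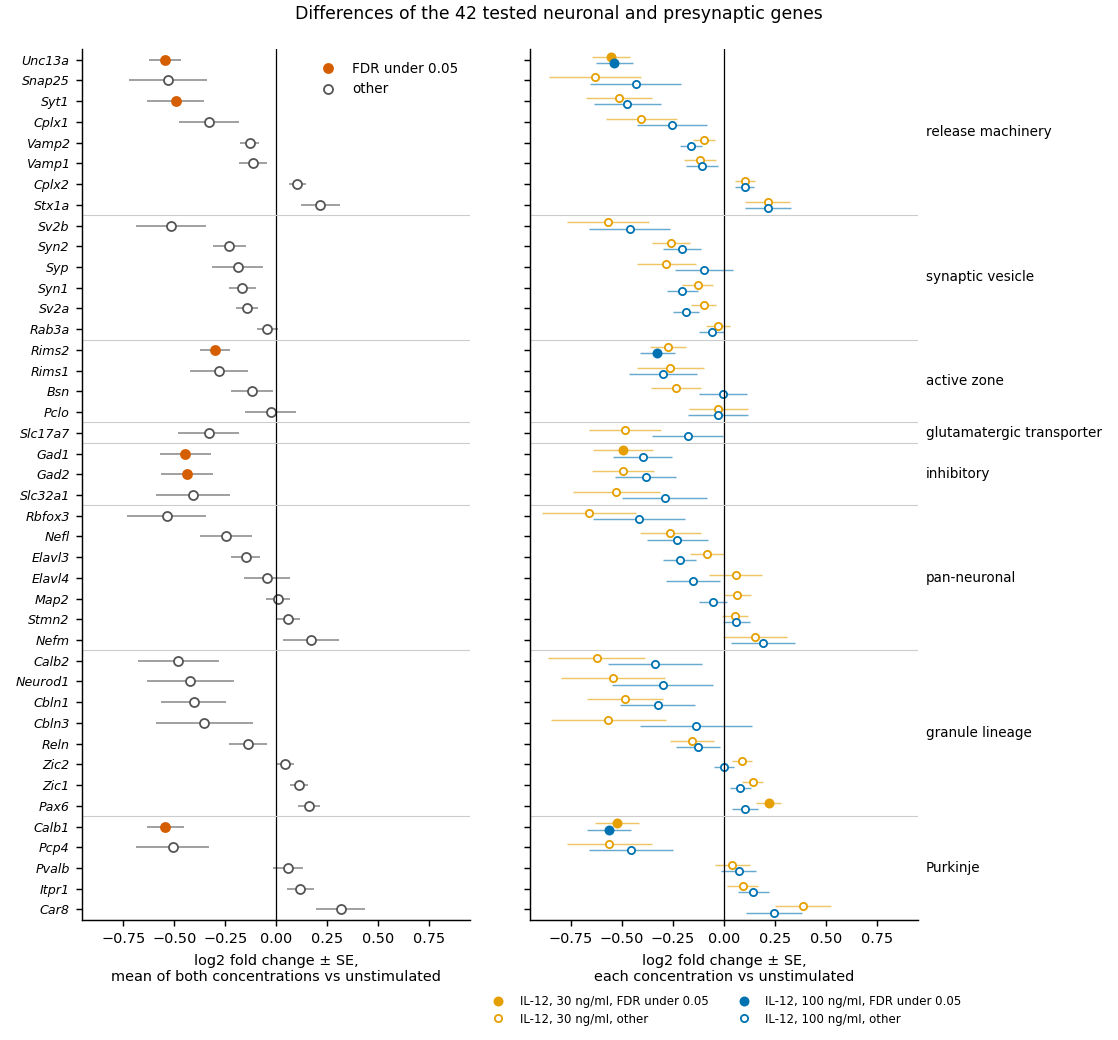
Log2 fold change with its standard error for the 42 tested members, grouped by role, against unstimulated cultures. The left panel shows the mean of the stimulated groups with 6 filled points, all below 0 and called at FDR under 0.05, and the right panel shows 30 and 100 ng/ml separately.

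Among the genes of vesicle release, *Unc13a* fell and its partners in fusion were mixed. *Unc13a* (chromosome 8, 72076694 to 72124685, minus strand, GRCm39) encodes Munc13-1, the priming factor that opens syntaxin so that vesicles become ready to fuse. It was at 13.9, 11.6, 13.4, 12.9 and 13.6 CPM in the unstimulated cultures. At 30 ng/ml it was at 8.55, 8.13, 9.17, 8.24 and 10.4 CPM, and at 100 ng/ml at 9.84, 10.7, 7.84, 7.77 and 9.01 CPM. All 10 stimulated cultures lay below all 5 unstimulated cultures. The log2 fold change was -0.55 ± 0.08 (SE; FDR 0.000271), a level 31.5% lower. It was -0.55 ± 0.09 with an FDR of 0.00169 for the 30 ng/ml cultures, and -0.54 ± 0.09 with an FDR of 0.00151 for those at 100 ng/ml. Of all tested genes, 1.17% were lower in every stimulated culture than in every unstimulated one, among them 2 members, *Unc13a* and *Calb1*. In the other direction, 1.98% of all genes were fully separated, with 0 members among them.

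The *Unc13a* transcripts that carry this count were of mixed kind. In unstimulated cultures, the 4 protein-coding transcripts made up 2.50 ± 0.25 TPM and the 3 transcripts with a retained intron 2.80 ± 0.60 TPM. At 30 ng/ml these were 2.10 ± 0.38 and 1.89 ± 0.49 TPM, and at 100 ng/ml 2.10 ± 0.41 and 1.97 ± 0.37 TPM. The coding and retained-intron transcripts held on average 47.6% and 52.4% of the gene's TPM without IL-12. They held 52.4% and 46.7% at 30 ng/ml and 45.3% and 42.8% at 100 ng/ml, where transcripts of other kinds held the rest. Summed over transcripts, the gene was at 4.43 to 5.73 TPM without IL-12, at 3.42 to 5.09 TPM with 30 ng/ml and at 4.14 to 5.34 TPM with 100 ng/ml, so that on this scale the groups overlapped. On log2(TPM + 1) with limma, the difference was -0.24 for the mean of both concentrations (FDR 0.0785) and -0.16 at 100 ng/ml (FDR 0.364), and neither was called. This was the one alternative in which its call was lost. Its opposite-strand neighbours *Colgalt1* and *Jak3* were at 79.9 and 12.7 TPM.

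*Syt1* encodes synaptotagmin-1, the calcium sensor of fast release, and lies on chromosome 10 from 108333505 to 108846856 (minus strand). Its level was 8.54, 10.3, 13.4, 9.00 and 9.90 CPM without IL-12. It was 7.79, 8.52, 8.23, 5.77 and 5.42 CPM at 30 ng/ml and 6.77, 9.82, 5.38, 6.56 and 8.33 CPM at 100 ng/ml. Unstimulated replicate 3 was the highest culture, and 9 of the 10 stimulated cultures lay below the lowest unstimulated one. The log2 fold change against the mean of both concentrations was -0.49 ± 0.14 (FDR 0.0276). Neither concentration alone passed the threshold, with an FDR of 0.0614 for 30 ng/ml and 0.0728 for 100 ng/ml. Its call was lost without unstimulated replicate 3 (-0.38, FDR 0.104) and without unstimulated replicate 5.

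*Snap25*, the SNARE of the plasma membrane, had a difference of the same size and a wider spread, with -0.53 ± 0.19 and an FDR of 0.0779. Its unstimulated cultures were at 23.2, 21.0, 41.97, 21.1 and 23.6 CPM, so that replicate 3 stood apart from the other 4. At 30 ng/ml it was at 18.3, 18.9, 22.6, 13.5 and 11.3 CPM, and at 100 ng/ml at 21.1, 27.2, 11.6, 17.5 and 19.9 CPM. The groups overlapped at both concentrations. *Cplx1*, a complexin that clamps and promotes fusion, differed by -0.33 ± 0.15 (FDR 0.161), whereas its relative *Cplx2* differed by 0.10 (FDR 0.118). The vesicle SNAREs *Vamp2* (-0.13, FDR 0.0785) and *Vamp1* (-0.11) and the syntaxin *Stx1a* (0.22, FDR 0.160) were not called. The median over the 8 release genes was -0.23, with 6 below 0.

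Of the 6 genes of the synaptic vesicle, none was called, and all 6 had a log2 fold change below 0, with a median of -0.18. The difference furthest from 0 was that of *Sv2b*, a vesicle glycoprotein, at -0.51 ± 0.17 (FDR 0.0587). Its paralogue *Sv2a*, the target of the drug levetiracetam, differed by -0.14 (FDR 0.0952). *Syn1* and *Syn2*, the synapsins that tether vesicles in reserve, differed by -0.17 (FDR 0.113) and -0.23 (FDR 0.0691). The membrane protein *Syp* was at -0.19 and the small GTPase *Rab3a* at -0.04. With 0 calls by edgeR, 4 of the 6 had an unadjusted p under 0.05 (12.9% of all genes in this direction), and DESeq2 called 2, *Syn2* and *Sv2b*, lower (7.26% of all genes).

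At the active zone, *Rims2* fell. It encodes a scaffold that binds Rab3, Munc13 and calcium channels, and spans chromosome 15 from 39060328 to 39549500 (plus strand). It was at 21.3, 20.2, 17.3, 16.1 and 19.1 CPM in unstimulated cultures, at 16.4, 14.7, 15.3, 16.1 and 15.3 CPM with 30 ng/ml, and at 13.0, 17.9, 14.9, 13.5 and 16.0 CPM with 100 ng/ml. Of the 10 stimulated cultures, 7 lay below the lowest unstimulated culture, and the groups overlapped. The log2 fold change was -0.30 ± 0.07 (FDR 0.0140). For 100 ng/ml it was -0.33 ± 0.09 (FDR 0.0250), and for 30 ng/ml it was -0.27 ± 0.09 (FDR 0.0605), which was not called. Leaving out unstimulated replicate 1 gave -0.25 for the mean of both concentrations and ended the call (FDR 0.0564). The call at 100 ng/ml was lost for 6 of the 15 cultures left out in turn (FDR up to 0.0769). *Rims1* was at -0.28, and the large scaffolds *Bsn* (bassoon) and *Pclo* (piccolo) were at -0.12 and -0.03, none of them called.

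Both enzymes that make GABA from glutamate fell. *Gad1* (chromosome 2, 70383416 to 70432372, plus strand) was at 15.6, 14.7, 22.0, 13.9 and 15.6 CPM in unstimulated cultures, with replicate 3 apart from the rest. It was at 12.9, 11.8, 14.4, 10.2 and 8.71 CPM with 30 ng/ml and at 12.9, 15.6, 9.69, 11.1 and 12.9 CPM with 100 ng/ml. In 8 of the 10 stimulated cultures it was below the lowest unstimulated one. Its log2 fold change was -0.45 ± 0.12 (FDR 0.0261). For 30 ng/ml alone it was -0.49 ± 0.15 (FDR 0.0448), and for 100 ng/ml -0.40 ± 0.14 (FDR 0.0909), which was not called. The call at 30 ng/ml was lost for 10 of the 15 cultures left out in turn (FDR up to 0.131). The antisense gene *Gad1os* overlaps it and was at 3.30 TPM.

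*Gad2* (chromosome 2, 22511862 to 22583886, plus strand), the membrane-associated form of the enzyme, was at 6.01, 5.95, 8.18, 5.59 and 6.80 CPM without IL-12. It was at 5.78, 4.10, 5.16, 4.09 and 3.93 CPM with 30 ng/ml and at 4.54, 7.08, 4.24, 4.41 and 4.75 CPM with 100 ng/ml. Here too 8 of 10 stimulated cultures lay below the unstimulated range, and replicate 2 at 100 ng/ml lay within it. Its log2 fold change was -0.44 ± 0.13 (FDR 0.0325), and neither concentration alone was called (FDR 0.0519 and 0.111). The vesicular GABA transporter *Slc32a1* was at -0.41 ± 0.18 (FDR 0.153). The median of these 3 inhibitory genes was -0.44. When unstimulated replicate 3 was left out, the calls of *Gad1* (-0.32, FDR 0.103), *Gad2* (-0.34, FDR 0.116) and *Syt1* were lost, which left 3 members called lower. The call of *Gad2* was lost for 8 of the 15 cultures left out in turn, with an FDR of up to 0.116. On the glutamatergic side, *Slc17a7* was at -0.33 ± 0.15 (FDR 0.161).

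Of the 7 tested pan-neuronal genes none was called in either direction, and their median was -0.05, with 4 below 0. An unadjusted p under 0.05 was reached by 2, where 12.9% of all genes reached it with a lower and 14.2% with a higher value, and DESeq2 called 1, *Rbfox3*, lower (7.26% of all genes). *Rbfox3*, which encodes the nuclear antigen NeuN and marks granule cells but not Purkinje cells, had the log2 fold change furthest from 0, at -0.54 ± 0.19 (FDR 0.0802). *Map2* was at 0.01, the growth-associated *Stmn2* at 0.06 and the RNA-binding proteins *Elavl3* and *Elavl4* at -0.15 and -0.05. The light neurofilament *Nefl* was at -0.25 and the medium chain *Nefm* at 0.17.

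None of the 8 granule cell lineage genes was called against the mean of both concentrations, and their values lay on both sides of 0. An unadjusted p under 0.05 was reached by 4, beside the same shares of all genes, and DESeq2 called 1, *Pax6*, higher (7.88% of all genes). *Pax6*, *Zic1* and *Zic2*, transcription factors of granule precursors and young granule cells, were at 0.16, 0.11 and 0.04. *Cbln1*, the secreted organiser of the parallel fibre synapse, was at -0.40 ± 0.16 (FDR 0.106), and its partner *Cbln3* at -0.35 ± 0.24 (FDR 0.366). *Neurod1*, a factor of granule cell differentiation, was at -0.42 ± 0.21 (FDR 0.217). *Calb2*, the calcium buffer calretinin, was at -0.48 ± 0.20 (FDR 0.131). *Reln*, the extracellular guidance protein reelin, was at -0.14.

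*Pax6* (chromosome 2, 105499234 to 105530952, plus strand) was the single member that rose in any comparison. It was at 40.4, 44.5, 38.4, 36.8 and 36.6 CPM in unstimulated cultures and at 47.4, 42.9, 43.7, 47.6 and 47.4 CPM with 30 ng/ml. With 100 ng/ml it was at 41.3, 45.3, 45.8, 41.3 and 37.9 CPM. The groups overlapped at both concentrations. With 30 ng/ml the log2 fold change was 0.22 ± 0.06 (FDR 0.0365), and with 100 ng/ml it was 0.10 ± 0.06 (FDR 0.311). The call at 30 ng/ml was lost for 7 of the 15 cultures left out in turn, with an FDR of up to 0.0972. *Elp4*, which overlaps *Pax6* on the opposite strand, was at 18.2 TPM.

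Of the Purkinje genes, *Calb1* fell. It encodes the calcium buffer calbindin, the usual marker of Purkinje cells in sections, and lies on chromosome 4 from 15881155 to 15908085 (plus strand). It was at 42.2, 51.4, 44.5, 45.6 and 43.9 CPM in unstimulated cultures, at 40.0, 33.2, 33.3, 25.3 and 26.4 CPM with 30 ng/ml and at 33.5, 31.7, 24.6, 30.7 and 33.7 CPM with 100 ng/ml. All stimulated cultures lay below all unstimulated ones. Its log2 fold change was -0.54 ± 0.09 (FDR 0.00111). For 30 ng/ml it was -0.53 ± 0.11 (FDR 0.00706), and for 100 ng/ml -0.56 ± 0.11 (FDR 0.00346). A single transcript carried 98.0% of its TPM, and its call held in all 23 alternatives tried.

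None of the other 4 tested Purkinje genes was called against the mean of both concentrations by edgeR or DESeq2. *Pcp4*, a calmodulin regulator, was at -0.51 ± 0.18 (FDR 0.0692), whereas *Pvalb*, the parvalbumin of Purkinje cells and interneurons, was at 0.06 and the IP3 receptor gene *Itpr1* at 0.12. *Car8*, which encodes a protein that binds that receptor, was at 0.31 ± 0.12 (FDR 0.0964). It was at 2.90, 2.90, 2.26, 2.51 and 2.48 CPM without IL-12 and at 3.50, 3.79, 3.74, 3.13 and 2.97 CPM with 30 ng/ml, where all 5 cultures lay above the unstimulated range. With 100 ng/ml it was at 2.73, 3.44, 3.27, 3.87 and 2.27 CPM, which overlaps that range. *Car8* was not called at either concentration. The share of all genes separated in this way at 30 ng/ml alone was not counted, so the separation is not a result about *Car8*.

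**Figure D3:**
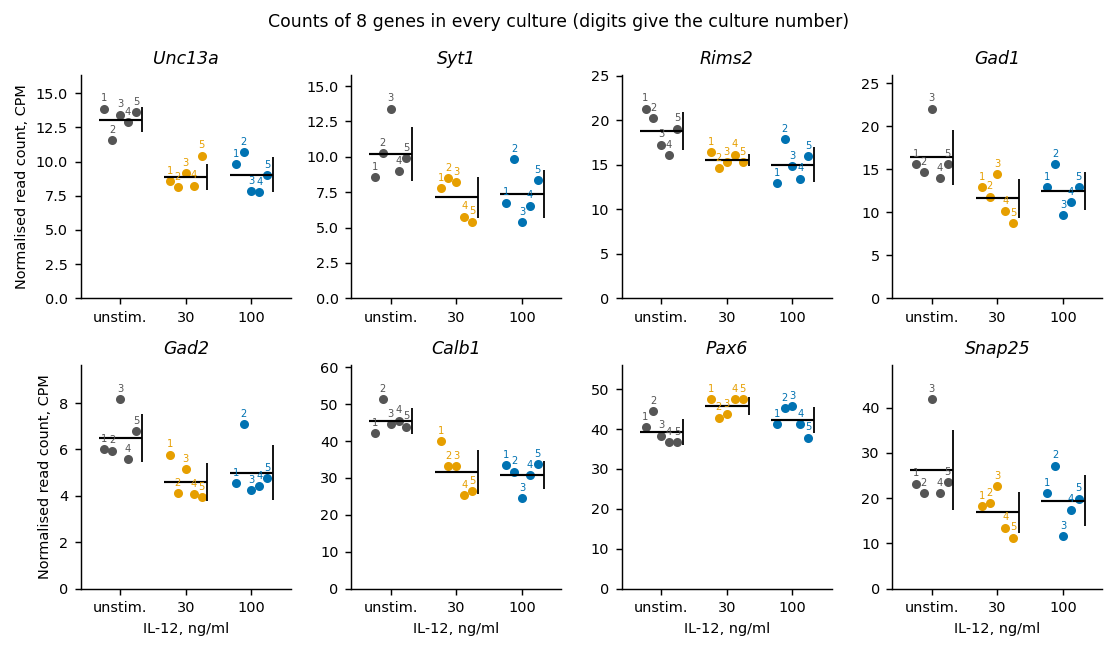
CPM of the members called in any comparison and of *Snap25*, which was not called and was chosen after its values were seen, with 1 numbered point per culture, a line at each group's mean and a bar for its SD. For *Unc13a* and *Calb1* all 10 stimulated cultures lie below all 5 unstimulated cultures.

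Side by side, the median log2 fold change was -0.44 for the 3 inhibitory genes, -0.25 for the 8 granule lineage genes, 0.06 for the 5 tested Purkinje genes and -0.05 for the 7 tested pan-neuronal genes. Within each culture, the mean log2 CPM of the granule lineage genes exceeded that of the inhibitory genes by 0.76 ± 0.14 (SD, n = 5) without IL-12, by 1.01 ± 0.15 with 30 ng/ml and by 0.98 ± 0.06 with 100 ng/ml. The excess of granule lineage over Purkinje genes was 0.54, 0.41 and 0.52 in the same order. CPM do not account for transcript length. On log2(TPM + 1), the excess over the inhibitory genes was 1.03, 1.21 and 1.22. Over the Purkinje genes it was 0.13, 0.07 and 0.20 on that scale, with unstimulated cultures from -0.03 to 0.46. These differences are given as a description, without a test. Summed over all 45 members, the level was 674 ± 52.7 TPM in unstimulated cultures, 660 ± 32.2 TPM with 30 ng/ml and 627 ± 32.7 TPM with 100 ng/ml, and the ranges of the 3 groups overlapped.

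Between 100 and 30 ng/ml, no member was called in either direction by edgeR or DESeq2, and none had an unadjusted p under 0.05. Of all tested genes, 0.579% were called by edgeR and 1.57% by DESeq2, and 12.7% had an unadjusted p under 0.05. The members' log2 fold changes ran from -0.21 for *Elavl4* to 0.43 for *Cbln3*, with a median of 0.03, and the smallest FDR was 0.442, for *Bsn*.

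Many members varied together between replicate cultures. The median coefficient of variation of a member was 11.8% in unstimulated cultures, 13.0% with 30 ng/ml and 15.4% with 100 ng/ml, against 6.998%, 6.43% and 8.78% over all tested genes. Unstimulated replicate 3 was the highest of its group for 22 of 42 members (18.3% of all genes). Replicate 2 at 100 ng/ml was the highest of its group for 24 (31.3% of all genes), and replicate 3 at 100 ng/ml the lowest for 23 (16.5%). Replicate 5 at 30 ng/ml was the lowest of its group for 23 members (19.0%).

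Granule lineage and inhibitory genes deviated together. The granule lineage genes of unstimulated replicate 3 lay 0.33 above their group mean on the log2 scale and the inhibitory genes 0.47. In replicate 3 at 100 ng/ml they lay 0.35 and 0.38 below it. The Purkinje genes stayed within 0.15 of their group mean in all 15 cultures. *Cbln3* had the widest spread, with a highest culture 2.18, 3.01 and 2.84 times the lowest in the 3 groups, and *Cplx2* the narrowest in unstimulated cultures at 1.10 times.

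Among the members, the lower values at both concentrations came from some cultures more than from others. Relative to the unstimulated mean, 18 of 42 members were at least 1.5-fold lower in replicate 5 at 30 ng/ml, 17 in replicate 3 at 100 ng/ml and 13 in replicate 4 at 30 ng/ml. In replicate 3 at 30 ng/ml and replicate 2 at 100 ng/ml the number was 0. Among unstimulated cultures none had a member that far below the mean, and replicate 3 had 5 members at least 1.5-fold above it (*Snap25*, *Slc17a7*, *Cbln3*, *Neurod1* and *Calb2*). The share of all tested genes at this fold limit was not counted. Whether other genes deviated as far in the same cultures was therefore not tested.

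**Figure D4:**
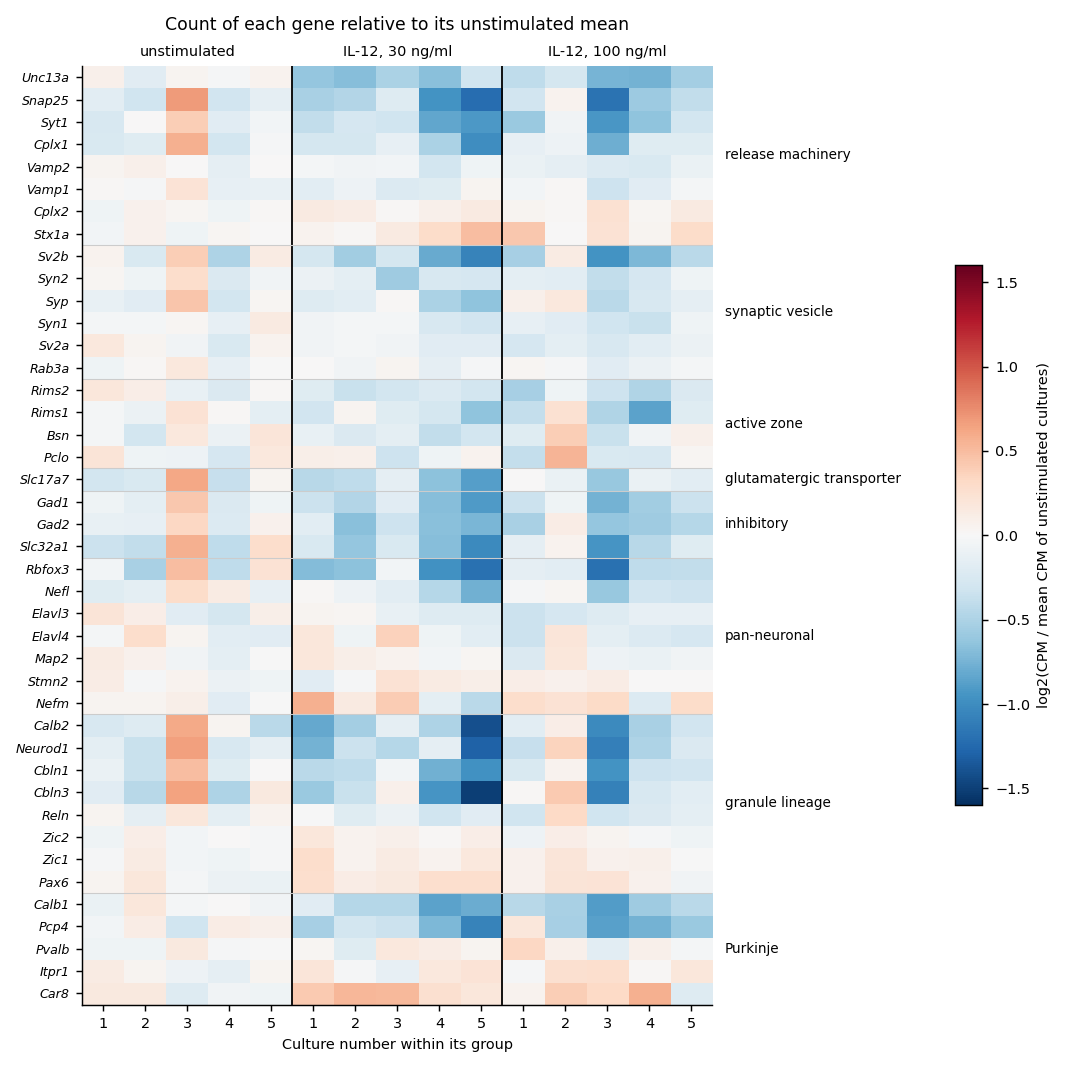
Log2 ratio of each culture's CPM to the unstimulated mean for the 42 tested members, grouped by role, with 1 column per culture. Blue columns at 30 ng/ml replicate 5 and 100 ng/ml replicate 3 hold 18 and 17 members at least 1.5-fold lower, counted for the members alone.

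Markers of other cells moved with these comparisons. Of 14 tested microglia markers, 7 fell and 0 rose against the mean of both concentrations, where 5.22% of all genes were called lower and 6.71% higher. At 30 and 100 ng/ml, 3.71% and 3.93% of all genes were called lower. With 30 ng/ml alone 10 fell, with a median log2 fold change of -0.43, and at 100 ng/ml 0 were called by edgeR, with a median of -0.14 and 2 at an unadjusted p under 0.05. Between the concentrations 0 were called (0.579% of all genes) and 13 had an unadjusted p under 0.05 (12.7% of all genes). Their summed level was 9646 to 13574 TPM without IL-12, 7700 to 9598 TPM with 30 ng/ml and 9155 to 12036 TPM with 100 ng/ml. Of 12 oligodendrocyte lineage markers, 5 fell (1 at 30 ng/ml alone and 4 at 100 ng/ml), with 6652 to 9873, 6682 to 8201 and 5940 to 7216 TPM in the same order. Of 11 astrocyte markers, 4 rose and 1 fell, with 3841 to 4299, 4551 to 5310 and 4263 to 4718 TPM. For comparison, the 45 neuronal members summed to 585 to 708, 630 to 710 and 597 to 680 TPM. Fibroblast markers (2 of 9 rose, 1 fell) summed to 2643 to 2872, 2571 to 3147 and 2738 to 3209 TPM, and ependymal markers (1 of 5 fell) to 1193 to 1568, 1088 to 1546 and 1024 to 1248 TPM. Endothelial markers (1 of 3 fell) stayed at or under 32.0 TPM, T and NK cell markers (2 tested, with no unadjusted p under 0.05) at or under 7.43 TPM, and of 8 proliferation genes 0 were called by edgeR, with 1 at an unadjusted p under 0.05. The part of these shifts in the members' values was not tested.

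Of 40 further presynaptic genes tested, which are not members, 2 rose and 3 fell, where 6.71% of all genes were called higher and 5.22% lower, and their median log2 fold change was -0.06. These counts are near the shares of all genes. The riser nearest to the members is *Unc13b*, the Munc13-2 paralogue of *Unc13a*, at 15.2 to 18.2 CPM without IL-12 and 21.6 to 26.6 CPM in the 10 stimulated cultures (0.47 ± 0.06, FDR 0.000111). *Sv2c*, the paralogue of *Sv2a* and *Sv2b*, rose by 0.67 ± 0.10 (FDR 0.000282), and *Syt7*, a calcium sensor of slow release, fell by 0.36 on the log2 scale (FDR 0.00626). The glycine transporter *Slc6a5* fell by 0.49. On CPM, the opposite directions of *Unc13a* and *Unc13b* held in all 10 stimulated cultures against the unstimulated range. On summed TPM the groups of *Unc13a* overlapped, as given above.

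Of 27 further pan-neuronal genes, 4 rose and 5 (18.5%) fell, where 6.71% of all genes were called higher and 5.22% lower. Among them were the neuronal tubulin *Tubb3* (0.46 ± 0.07, FDR 0.000413) and *Thy1* (0.29) on one side. The filament protein *Ina* (-0.44 ± 0.08, FDR 0.00268) was on the other. Of 12 further inhibitory interneuron genes, 2 fell, namely *Grm2* (-0.66 ± 0.16, FDR 0.0109) and *Slc6a5*. The latter is also in the list of further presynaptic genes and is counted in both. Of 11 further granule lineage genes, 1 rose and 1, *Chn2*, fell by 0.36. Of 12 further Purkinje genes, 1 rose and 0 fell, with 3 at an unadjusted p under 0.05. These are counts of tested genes. The filter was not passed by 6 more granule lineage, 4 more Purkinje and 2 more inhibitory interneuron genes of these lists. The log2 fold change was below 0 for 77.8% of the further pan-neuronal genes and 75% of the inhibitory interneuron genes. It was below 0 for 67.5% of the further presynaptic, 63.6% of the granule lineage and 41.7% of the Purkinje genes. The same held for 73.8% of the members and 50.8% of all genes, so this lean was not particular to the members.

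**Figure D5:**
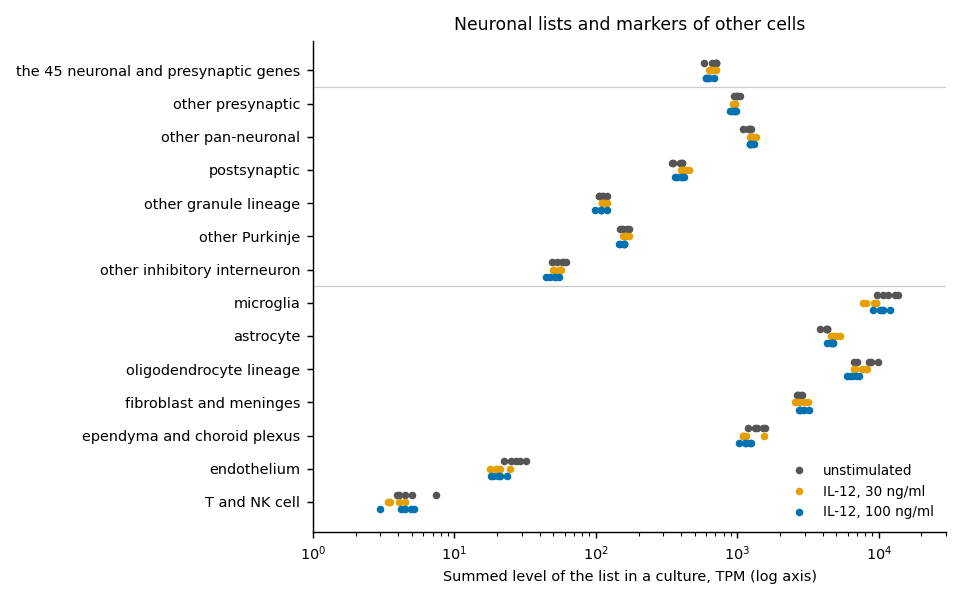
Summed TPM (log axis) of the 45 members, of other neuronal lists and of markers of other cells, with 1 point per culture. The members lie between 585 and 710 TPM in all 15 cultures, and the microglia markers between 7700 and 13574 TPM.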

How the data were processed

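RNA from 15 cultures was sequenced as stranded poly(A) libraries. The submitters' processing notes name FastQC 0.10.0, STAR 2.7.8a, featureCounts and GRCm39. The deposited files instead hold estimated counts and TPM for 121798 transcripts per culture, made by the authors with a program not given in the sources used here. The estimated counts of the 120537 transcripts (99.0%) found in GENCODE release M39 were summed to 35142 genes and rounded. Deposited TPM were summed in the same way. Unmatched transcripts, at 0.677% to 0.712% of counts, were left out. Mitochondrial transcripts held 3.32% to 4.11%. The plan had assumed counts per gene.

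The 15360 genes that reached 1 CPM in 2 or more cultures were fitted in 1 model of the 3 groups with edgeR 4.0.16 (quasi-likelihood test, TMM factors of 0.981 to 1.020, R 4.3.3), which was tested on simulated data. The biological coefficient of variation was 8.00%. Adjusted p-values are Benjamini-Hochberg values from edgeR unless another tool is named. Alternatives used DESeq2 1.42.0 and limma 3.58.1 on log2(TPM + 1), other scalings and filters, the likelihood-ratio test, other thresholds, the replicate number as a block, and each culture left out in turn. Tables and figures were made with Python 3.11.15 and pandas 2.3.3. No 2 cultures of a group agreed within sampling noise.

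The members and lists were chosen with earlier results of these data known. All members were described. From each other list, up to 4 called genes with the largest change and a mean of at least 1 CPM were named. A few genes of these other lists are not reported here.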

Additional observations from a re-analysis of the deposited data

Results flagged for a closer look

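For 14 of the 135 combinations of a member and a group of 5 cultures, 1 culture stood apart from the other 4, its gap to the nearest one being over 0.71 of the group's range. Chance marks about 1 in 20 such groups, and members that vary together are not independent. In unstimulated replicate 3, *Snap25* was at 41.97 CPM (next 23.6), *Cplx1* at 27.06 (next 18.0), *Gad1* at 22.02 (next 15.6), *Neurod1* at 4.93 (next 2.83) and *Pvalb* at 17.46 (next 15.6), so that 5 of the 14 fell in this culture, each on the high side. In unstimulated replicate 2, *Zic1* was high at 117.9 CPM (next 107). In replicate 2 at 100 ng/ml, *Gad2* was high at 7.08 CPM (next 4.75) and *Reln* at 17.53 (next 12.6), and *Pcp2* was at 0 (next 0.0291). In replicate 3 at 100 ng/ml *Cplx1* was low at 10.63 CPM (next 15.9), in replicate 4 *Nefm* was low at 3.67 (next 5.01), and in replicate 1 *Pcp4* was high at 1.35 (next 0.822). At 30 ng/ml, *Vamp2* was low in replicate 4 at 83.0 CPM (next 96.7) and *Pcp2* was at 0.104 CPM in replicate 2 and at 0 in the other 4.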

How the results depend on the processing

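Over the alternative settings, 23 or 24 for each value, the members' values kept their direction and their side of the threshold in 1200 cases. These include uncalled members that stayed uncalled. The values moved past the threshold in 53 cases, lost it in 44 and changed sign in 13. Against the mean of both concentrations, 6 members were called lower in the reported fit, 10 with DESeq2, 10 with the likelihood-ratio test, 3 when calls needed p up to 0.01 without adjustment plus a 0.5 log2 change, and 3 to 11 with 1 culture left out (3 when unstimulated replicate 3 was dropped, 10 for unstimulated replicate 4 and 11 for replicate 2 at 100 ng/ml). Limma on TPM called 4. The count called higher was 0 in the reported fit, 1 with DESeq2, library size alone and the likelihood-ratio test, and 0 to 2 with 1 culture left out. At 100 ng/ml the count called lower went from 3 to 6 with DESeq2 and with the likelihood-ratio test and to 2 to 9 with 1 culture left out, and was 2 with limma on TPM, with only the groups compared and at the thresholds of p and fold above. At 30 ng/ml it went from 3 to 7 with DESeq2, to 6 with the likelihood-ratio test and with only the groups compared, to 2 with limma on TPM and to 2 to 7 with 1 culture left out. Against the mean of both concentrations, 5.22% of all genes were called lower in the reported fit and 7.26% with DESeq2. For most other settings the share of all genes is not given here. A higher count in such a setting is therefore not a result about the members. *Pax6*, the 1 member called higher at 30 ng/ml, was lost (0) with limma on TPM and at the thresholds of p and fold above, with 0 to 2 members called when 1 culture was left out. The labels do not say whether the replicate numbers pair the cultures. The correlation of deviations of same-numbered cultures ran from -0.18 to 0.26 over 15 pairs. Between cultures of different number it ran from -0.24 to 0.31. These weak correlations do not settle whether some numbers share a litter or day. With the replicate number as a block, 7 members were called lower against the mean of both concentrations, 4 at 100 ng/ml and 2 at 30 ng/ml, and 0 higher at 30 ng/ml. The calls of *Calb1* held in all 23 alternatives, those of *Unc13a* and *Rims2* in 22, those of *Syt1* and *Gad1* in 21 and that of *Gad2* in 14. The thresholds of p and fold above are not among these 23. They were met by *Unc13a*, by *Calb1* and by *Sv2b*, the last of which was not called in the reported fit. *Rims2* (-0.30), *Syt1* (-0.49), *Gad1* (-0.45) and *Gad2* (-0.44) did not reach that fold. Changes of sign came from 4 uncalled members near 0: limma on TPM gave *Pclo* 0.0419, *Elavl4* 0.0650 and *Map2* -0.00127, and with 1 culture left out *Pclo* ran from -0.116 to 0.0305, *Elavl4* from -0.0937 to 0.0309, *Map2* from -0.0281 to 0.0418 and *Rab3a* from -0.0753 to 0.000885. The cause of these changes was not tested. Depth limits the lowest members: *Pcp4*, the lowest tested, had 16 to 44 counts per culture, and the 0 to 3 counts of *Pcp2* allow no comparison.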

Other observations

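Genes of the receiving side of the synapse, which are not members, had 3 called higher and 0 lower of 22 tested against the mean of both concentrations, where 6.71% of all genes were called higher and 5.22% lower. At 100 ng/ml alone 1 was called higher and 1 lower, and at 30 ng/ml 2 higher and 0 lower. The 3 were the postsynaptic scaffold *Shank3* (0.17 ± 0.04, FDR 0.0140), the adhesion protein *Nlgn2* (0.16 ± 0.04, FDR 0.0216) and *Dlg4*, which encodes PSD-95 (0.12 ± 0.04, FDR 0.0464). Immediate early genes, which neurons and other cells switch on after stimulation, had 0 called higher and 3 lower of 11, with 3 lower at 100 ng/ml alone and 1 at 30 ng/ml. *Fos* was at 82.7 to 99.4 CPM without IL-12 and at 65.6 to 90.6 CPM with it (-0.26 ± 0.05, FDR 0.00378), and *Ier2* and *Nr4a1* fell by 0.24 and 0.26 on the log2 scale.

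The level of *Map2* came mainly from short coding transcripts. A single transcript of 5303 bases, with 498 codons, carried 55.5% of its TPM. Transcripts of at most 1500 codons made up 70.6 TPM without IL-12, 79.9 TPM with 30 ng/ml and 67.7 TPM with 100 ng/ml, and those above 1500 codons, the size class of the dendritic isoforms of mature neurons, 5.62, 5.27 and 4.94 TPM.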
